A study of Homo sapiens with 8 samples.

Results

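The comparison described here is siTET2 against siControl in DU145, an established human prostate cancer line that grows without androgen. It was chosen by array title: the array of DU145 cells given an siRNA against TET2 (siTET2) and the array of DU145 cells given a control siRNA (siControl), 2 of the 8 arrays in the series. A further DU145 array, of cells given a negative control miRNA (nc), served as a second control, and the array of DU145 cells given miR-29b is shown beside them. RNA was taken 72 hours after transfection from cells kept in serum-containing medium, and each line and construct has 1 array. Every value below is therefore a single measurement with no replicate, no difference has a p-value, and "higher" and "lower" describe these arrays. The labels name 1 siTET2 construct and no rescue, so effects of losing TET2 and other effects of that construct cannot be told apart. LNCaP, an androgen-responsive prostate cancer line, received the same constructs and is used only to show where the DU145 differences recur.

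TET2 belongs to the TET family of dioxygenases, which oxidise 5-methylcytosine in DNA to 5-hydroxymethylcytosine and further products. Those products can be lost by dilution at replication or cut out by the glycosylase TDG and replaced by base excision repair. A small interfering RNA guides the Argonaute complex to a matching messenger RNA and lowers its level, and it can also lower other transcripts that match its seed. DU145 carries mutant p53, so genes known as p53 targets can be read there only as a list.

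Levels are the deposited values, read as log2, in which 1 unit is a 2-fold difference. Genes were considered when the higher of both arrays reached that array's median over named genes, and 9424 of 18417 genes passed this level floor. Over these genes the median difference of siTET2 minus siControl was -0.01, and the SD across genes was 0.23. Of 13 measured DU145 markers, 11 lay above the median of each of the 4 DU145 arrays. The other lists had few such genes in each DU145 array: 1 of 8 LNCaP markers (STEAP2), 1 of 11 immune cell markers (CD68) and 0 or 1 of 10 fibroblast markers (COL1A1 in the siTET2 and miR-29b arrays). The summed linear level of the immune list ranged from 1941 to 2450 over the 4 DU145 arrays and that of the fibroblast list from 418 to 486, with the siTET2 array at 2450 and 465 and the siControl array at 2180 and 436. For the LNCaP list the sum was 893 with siTET2 and 1212 with siControl. STEAP2, its highest member, was 9.04 with siTET2 and 9.70 with siControl, whereas the median level of the list was 5.61 and 5.55. The part of other cells in the differences below was not tested.

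TET2, the targeted gene, was lowest in the siTET2 array. Its main probe set read 6.60 with siTET2, against 7.85 with siControl, 7.96 with nc and 7.79 with miR-29b. The difference from siControl was -1.25, a 2.37-fold lower level, and 8 genes lay further below siControl than TET2. The gene's other probe set gave 6.95 with siTET2 and 7.86 with siControl, a difference of -0.91. The siTET2 level of TET2 lay below the array's median, so part of the remaining signal may be background. In a bulk culture, fewer cells of a kind and less RNA per cell cannot be told apart for any of these values.

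The other enzymes of cytosine demethylation showed a single further difference past 1.5-fold. TET1 was 7.66 with siTET2, against 6.85 with siControl, 7.19 with nc and 7.13 with miR-29b, which put it 0.81 above siControl and 0.46 above nc. It lay above the array median with siTET2 only, and below it in the 3 other DU145 arrays. TET3 was 7.63 with siTET2 and 7.47 with siControl. LIG3, a ligase that seals base excision repair, read 8.80 with siTET2, against 9.32 with siControl and 9.36 with nc. Of 15 genes of oxidation and excision above the floor, 7 were above 0 and 8 below (4456 and 4966 of all 9424 genes), with a median of -0.03. The methyltransferase list had a median of -0.04 over 10 genes, 0 of which passed 1.5-fold. DNMT1, which copies methylation at replication, was 10.41 with siTET2, against 10.66 with siControl and 10.85 with nc. UHRF1, its partner at replicating DNA, was 10.06 with siTET2, against 10.31 with siControl and 10.58 with nc, but the mean over its probe sets differed from siControl by 0.06 in the other direction. DNMT3A was 7.83 with siTET2 and 7.71 with siControl, and DNMT3B lay below the floor at 6.97 and 6.86.

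Across all genes, 12 were at least 2-fold higher with siTET2 (0.127%) and 20 at least 2-fold lower (0.212%). At 1.5-fold, 90 were higher (0.955%) and 150 lower (1.59%). Of the 90, 19 reached the array median in only 1 of these 2 arrays, as did 27 of the 150. Such genes passed the level floor only through the array in which they were higher. Between the control arrays, siControl minus nc, 4 of 9373 genes were at least 2-fold higher (0.0427%) and 0 were lower (0%), while 15 were at least 1.5-fold higher (0.16%) and 17 lower (0.181%). The control difference mixes 2 constructs with the variation between dishes and arrays, and how much each contributes was not tested. Set against nc, siTET2 was at least 2-fold higher in 20 of 9457 genes (0.211%) and lower in 21 (0.222%), and at least 1.5-fold higher in 148 (1.56%) and lower in 234 (2.47%). Of the genes past 2-fold from siControl, 9 of the 12 higher and 14 of the 20 lower were also past 2-fold from nc on the same side, which is 0.0955% and 0.149% of all genes. In all 32 the siTET2 level lay outside the range of the other 3 DU145 arrays. Choosing genes by their distance from siControl makes that likely beforehand, so it adds no separate evidence. Beyond both controls by 1.5-fold lay 63 genes on the higher side (0.669%) and 104 on the lower side (1.1%).

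**Figure D1:**
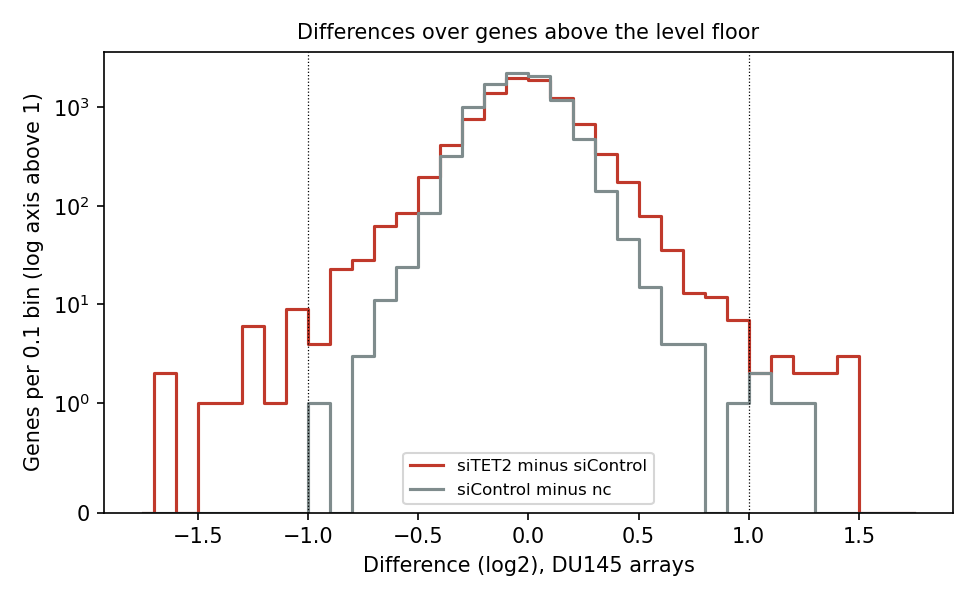
Number of genes (vertical axis, logarithmic above 1) by log2 difference (horizontal axis, bins of 0.1) for siTET2 minus siControl and for siControl minus nc in DU145, with dotted lines at 2-fold. The siTET2 curve is wider on both sides, with 12 genes past 2-fold higher and 20 lower, against 4 and 0 between the controls.

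The 20 genes at least 2-fold lower were led by SCD, PERP and AKTIP. SCD, the desaturase that makes monounsaturated fatty acids, was 9.41 with siTET2, against 11.08 with siControl, 12.01 with nc and 11.69 with miR-29b. PERP, a tetraspan protein of desmosomes, read 8.62 with siTET2, against 10.26 with siControl, 10.16 with nc and 10.13 with miR-29b. AKTIP, a partner of Hook proteins in vesicle transport, stood at 7.02 with siTET2 and at 8.49 with siControl. In PERP and AKTIP the 3 other arrays lay within 0.2 of each other and the siTET2 array lay alone below them, whereas for SCD the controls themselves were 0.93 apart. THOC7, a subunit of the THO complex that couples transcription to mRNA export, was 8.53 with siTET2 and 9.88 with siControl. SKAP2, an adaptor of Src family kinases, was 9.46 with siTET2 and 10.76 with siControl, and METAP2, which removes the first methionine of new proteins, was 9.53 with siTET2 and 10.82 with siControl. CAVIN2, a coat protein of caveolae, read 6.81 with siTET2, against 8.11 with siControl and 8.67 with nc.

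RPS6KA6, a kinase of the ribosomal S6 kinase family, stood at 7.08 with siTET2, against 8.34 with siControl, 8.12 with nc and 7.96 with miR-29b. SARAF, an inhibitor of store-operated calcium entry, was 8.95 with siTET2 and 10.17 with siControl. Next came TMEM14A, a small membrane protein, with 9.33 in the siTET2 array and 10.49 in the siControl array. The remaining 9 genes at least 2-fold lower differed from siControl by -1.09 to -1.01. They were the histone gene H2BC14 (-1.09), the deubiquitinase OTUD6B (-1.08), the RNA helicase DDX1 (-1.07), the transcription factor NFIA (-1.07), the spindle protein SPAG5 (-1.06), the ubiquitin ligase RNF13 (-1.05), NHP2 of the box H/ACA ribonucleoproteins (-1.03), the lysosomal membrane protein GPR137B (-1.02) and the vesicle fusion protein NAPG (-1.01). Probes for H2BC14 may also read near-identical histone genes. Both probe sets of NHP2 gave close values, -1.03 and -1.07. AKTIP, CAVIN2, RPS6KA6 and TET2 lay below the array median with siTET2 and above it in the 3 other DU145 arrays.

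The 12 genes at least 2-fold higher were led by LIPH, a phospholipase that makes lysophosphatidic acid. Its level was 9.78 with siTET2, against 8.29 with siControl, 8.06 with nc and 7.93 with miR-29b. IL6R, the receptor subunit that binds interleukin 6, read 9.49 with siTET2, against 8.15 with siControl, 8.27 with nc and 8.24 with miR-29b. The 3 other arrays agreed within 0.12 for IL6R, and siTET2 stood 1.22 or more above each. SLAMF7, a receptor best known on immune cells, was 7.96 with siTET2, against 6.69 with siControl, 6.65 with nc and 6.33 with miR-29b. PLEKHM1, an adaptor for lysosome fusion, was 8.11 with siTET2 and 7.30 with nc, and its difference from siControl was 1.12. C1QTNF6, a secreted C1q-like protein, was 8.63 with siTET2, against 7.52 with siControl and 8.04 with nc, so that 0.59 remained against nc. STK40, a Tribbles-related pseudokinase, lay just past the threshold at 8.55 with siTET2 and 7.55 with siControl. The other 6 of the 12 (TRAF1, HMOX1, TXNIP, SESN2, CASTOR1 and CCL5) are described with their gene groups. TRAF1, SLAMF7, PLEKHM1 and CCL5 lay above the array median with siTET2 and below it in the 3 other DU145 arrays. Closest outside the threshold were CSF1 (0.99), PPP1R15A (0.99) and H4C8 (0.99) on the higher side and HMGN3 (-0.96), CAAP1 (-0.93) and NMU (-0.92) on the lower side.

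**Figure D2:**
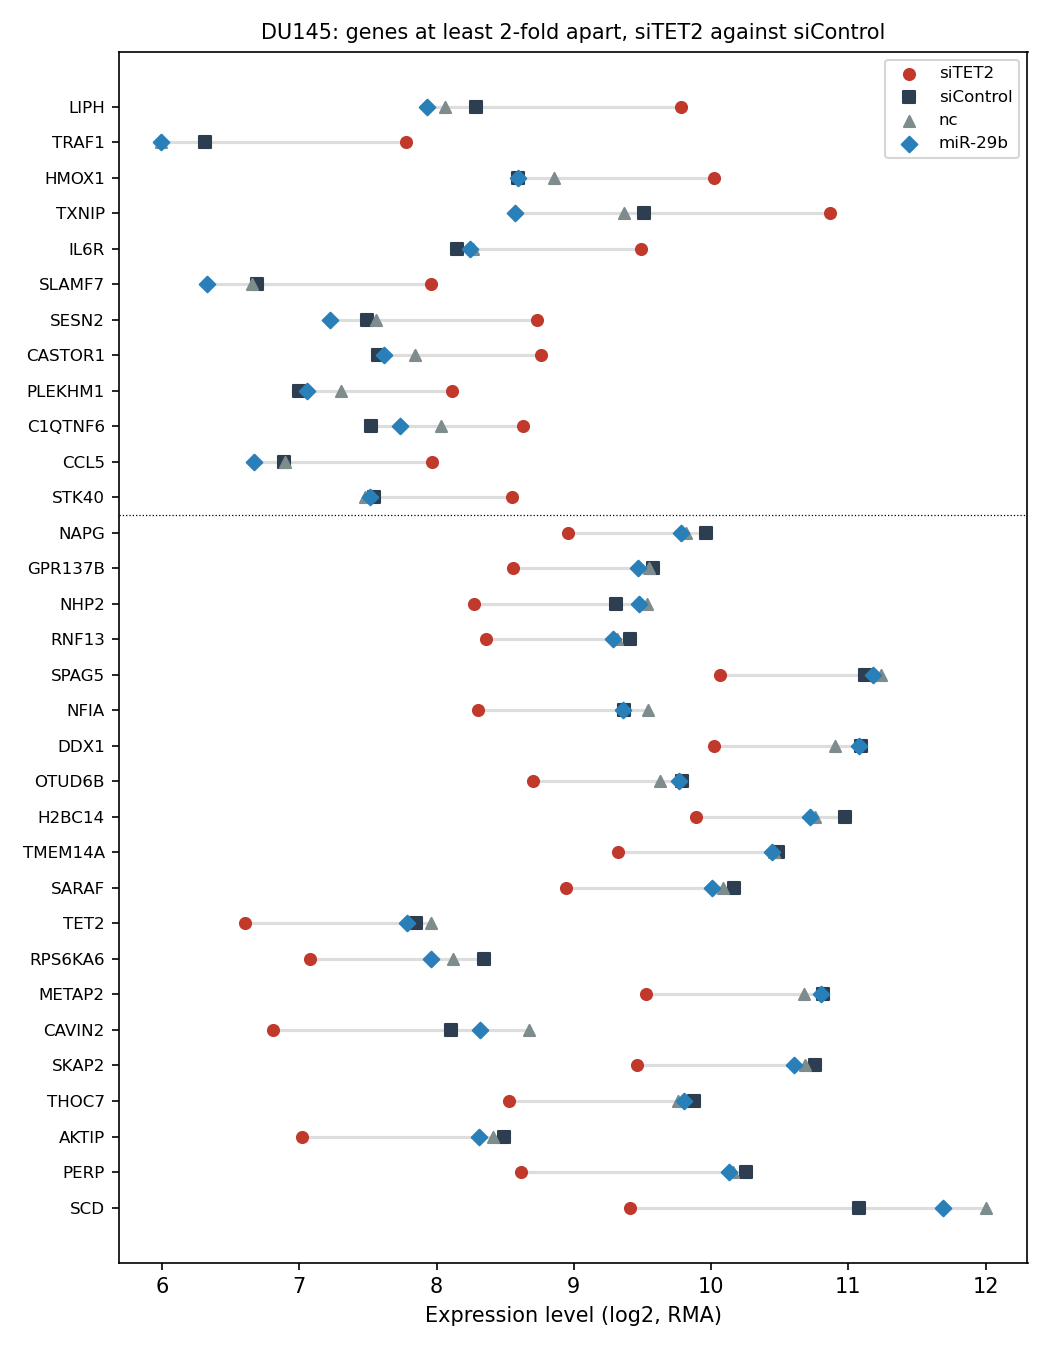
Log2 expression level (horizontal axis) of the 32 genes at least 2-fold apart between siTET2 and siControl in DU145, 1 symbol per array and 1 row per gene, with the higher genes above the dotted line. For every gene the siTET2 symbol lies at an end of the row, which choosing genes by their distance from siControl makes likely. TRAF1 runs from 5.99 with miR-29b to 7.78 with siTET2, and SCD from 12.01 with nc to 9.41 with siTET2.

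Genes of amino acid and integrated stress were among the clearest higher values, although the list as a whole was mixed. ATF4 is a transcription factor whose translation increases when amino acids are short or the endoplasmic reticulum is stressed, and it acts with C/EBP partners on genes such as CHAC1 and DDIT3. Of 33 members above the floor, 6 were at least 1.5-fold higher and 1 lower, against 0.955% and 1.59% of all genes. The median was 0.10 (0.04 against nc). The gene lists were chosen with earlier results of these data known, so their counts are a description only. Lists also share genes: SESN2 counts again in the p53 and mTORC1 lists, and DDIT4 in the mTORC1 list. SESN2, which restrains mTORC1 when leucine is short, was 8.73 with siTET2, against 7.49 with siControl, 7.56 with nc and 7.23 with miR-29b. PPP1R15A, a phosphatase subunit that reverses eIF2 phosphorylation, was 9.74 with siTET2, against 8.75 with siControl, 8.46 with nc and 8.13 with miR-29b. CHAC1, which degrades glutathione, was 9.40 with siTET2, against 8.48 with siControl, 8.44 with nc and 8.39 with miR-29b. For these genes the siTET2 array stood above all 3 others. DDIT3, the transcription factor CHOP, was 9.92 with siTET2, against 9.11 with siControl, 8.20 with nc and 8.15 with miR-29b, so siControl was itself 0.91 above nc. DDIT4, an inhibitor of mTORC1, was 10.11 with siTET2 and 9.45 with siControl. SHMT2, the mitochondrial serine hydroxymethyltransferase and also an ATF4 target, ran the other way with 11.08 in the siTET2 array, against 11.74 with siControl and 11.97 with nc. The chaperones and degradation factors of the endoplasmic reticulum did not share the direction of DDIT3: their median was -0.07 over 27 genes (0.01 against nc), and 0 passed 1.5-fold.

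To show what lies upstream of the genes discussed, 6 promoter windows from RefSeq (GRCh38.p14) are printed, each 300 bases from 250 before the start of the gene, on the gene's strand, 5′ to 3′. They are CHAC1 (chr15:40953221-40953520, plus strand), PPP1R15A (chr19:48872171-48872470, plus), SESN2 (chr1:28259268-28259567, plus), TXNIP (chr1:145996530-145996829, minus), CDK1 (chr10:60778081-60778380, plus) and SCD (chr10:100346983-100347282, plus). Capitals mark matches, on either strand, to 5 motifs: the C/EBP-ATF response element TGATGNAA, the cyclic AMP response element TGACGTCA, the CCAAT box, the cell cycle homology region TTTGAA, and the paired E-box-like carbohydrate response element.
CHAC1: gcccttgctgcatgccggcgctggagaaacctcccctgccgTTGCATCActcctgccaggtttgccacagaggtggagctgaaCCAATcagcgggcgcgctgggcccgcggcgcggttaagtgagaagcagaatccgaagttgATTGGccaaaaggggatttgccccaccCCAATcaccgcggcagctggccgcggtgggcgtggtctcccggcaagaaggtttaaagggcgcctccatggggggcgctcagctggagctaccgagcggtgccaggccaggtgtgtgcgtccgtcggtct
PPP1R15A: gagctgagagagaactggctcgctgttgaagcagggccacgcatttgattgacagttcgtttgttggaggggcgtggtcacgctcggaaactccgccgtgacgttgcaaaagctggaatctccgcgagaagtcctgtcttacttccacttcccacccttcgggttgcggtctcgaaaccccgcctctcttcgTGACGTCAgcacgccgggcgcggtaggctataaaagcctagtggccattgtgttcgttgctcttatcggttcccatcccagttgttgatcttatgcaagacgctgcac
SESN2: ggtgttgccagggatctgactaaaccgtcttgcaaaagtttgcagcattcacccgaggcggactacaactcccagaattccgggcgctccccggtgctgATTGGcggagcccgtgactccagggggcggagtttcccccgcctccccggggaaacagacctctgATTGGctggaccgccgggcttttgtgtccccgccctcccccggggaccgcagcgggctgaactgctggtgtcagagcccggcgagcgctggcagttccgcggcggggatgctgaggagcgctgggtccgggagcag
TXNIP: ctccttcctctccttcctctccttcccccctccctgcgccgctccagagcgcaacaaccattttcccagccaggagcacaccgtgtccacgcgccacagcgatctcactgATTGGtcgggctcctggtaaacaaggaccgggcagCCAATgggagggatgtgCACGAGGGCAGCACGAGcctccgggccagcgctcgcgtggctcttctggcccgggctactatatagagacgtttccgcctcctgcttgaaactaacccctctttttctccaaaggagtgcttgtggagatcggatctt
CDK1: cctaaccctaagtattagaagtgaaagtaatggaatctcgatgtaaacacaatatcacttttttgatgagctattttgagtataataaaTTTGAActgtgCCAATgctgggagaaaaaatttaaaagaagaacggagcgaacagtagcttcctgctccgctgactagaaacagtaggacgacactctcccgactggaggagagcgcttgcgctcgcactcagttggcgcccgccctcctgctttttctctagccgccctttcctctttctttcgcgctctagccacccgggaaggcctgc
SCD: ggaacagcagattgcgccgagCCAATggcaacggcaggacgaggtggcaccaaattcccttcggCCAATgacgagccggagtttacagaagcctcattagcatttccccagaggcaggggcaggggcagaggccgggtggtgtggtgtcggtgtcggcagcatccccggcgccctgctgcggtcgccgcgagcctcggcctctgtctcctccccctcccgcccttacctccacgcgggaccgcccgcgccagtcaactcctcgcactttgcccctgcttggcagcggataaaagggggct
The CHAC1 window held the C/EBP-ATF element as its reverse complement and 3 CCAAT boxes, and the PPP1R15A window held the full cyclic AMP element. The windows of SESN2 and SCD each held 2 CCAAT boxes. TXNIP held the paired E-box-like element and 2 CCAAT boxes, and CDK1 held TTTGAA and a CCAAT box close together. No matches overlapped in these windows. Of 27305 promoter windows in the table, 3.67% held TGATGNAA, 1.98% TGACGTCA, 35.7% CCAAT, 15.4% TTTGAA and 1.46% the paired element. Among members above the floor with a window, TGATGNAA stood in 6 of 28 stress genes and 1 of 44 mitotic genes, and TTTGAA in 3 and 30. TGACGTCA stood in 1 stress gene and 5 mitotic genes, CCAAT in 16 and 31, and the paired element in 0 and 1. Members were counted whether or not they differed with siTET2, so these shares describe the lists and not the siTET2 differences. A match describes letters in a window and was not tested as a binding site; 24 of the 32 genes past 2-fold had a window in the table.

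Oxidative stress and glucose sensing each had 1 gene past 2-fold. HMOX1, the heme oxygenase induced by NRF2 and other stress factors, was 10.02 with siTET2, against 8.59 with siControl, 8.85 with nc and 8.59 with miR-29b. Other NRF2 genes lay closer together: SRXN1, a sulfiredoxin, was 11.28 with siTET2 and 10.85 with siControl. Over 29 members the median was 0.10, with 20 above siControl but 16 above nc, against 4456 and 4031 of all 9424 genes. At 1.5-fold, 1 was higher (HMOX1) and 0 lower, against 0.955% and 1.59% of all genes. TXNIP, which binds thioredoxin and limits glucose uptake, was 10.87 with siTET2, against 9.51 with siControl, 9.36 with nc and 8.57 with miR-29b, the widest range over the 4 arrays among the genes higher with siTET2 that are shown by array. The other sensor genes were within 1.5-fold of siControl, led by PDK4, a kinase that slows pyruvate oxidation, with 8.77 in the siTET2 array, against 8.25 with siControl and 8.04 with nc.

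Genes of TNF receptor signalling had more members above siControl than below. NF-kappaB is held inactive by inhibitors such as NFKBIA and induces many of its own regulators, and TRAF proteins join it to TNF family receptors. The list's median was 0.19 over 27 genes (0.14 against nc), with 21 above 0 (4456 of all 9424 genes) and 3 at least 1.5-fold higher (0.955% of all genes). TRAF1 was 7.78 with siTET2, against 6.31 with siControl, 5.99 with nc and 5.99 with miR-29b, where the 3 lower readings lay below the level floor. TNFRSF9, the costimulatory receptor 4-1BB, was 9.75 with siTET2, against 9.04 with siControl and 8.77 with nc. TNFRSF10B, a death receptor for TRAIL, was 11.63 with siTET2 and 10.94 with siControl. NFKBIA was 12.55 with siTET2, against 12.12 with siControl and 11.90 with nc, while TRAF3 was lower at 8.37 with siTET2 and 8.79 with siControl.

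Of 17 chemokines and cytokines above the floor, 11 were above siControl and 6 below, against 4456 and 4966 of all 9424 genes. At least 1.5-fold higher were 2, against 0.955% of all genes. CCL5, a chemokine for T cells, was 7.97 with siTET2, against 6.89 with siControl and 6.89 with nc. CSF1, the macrophage growth factor, was 9.97 with siTET2, against 8.98 with siControl but 9.45 with nc. CXCL8, a chemokine for neutrophils, was 11.75 with siTET2, against 11.25 with siControl, 10.17 with nc and 10.39 with miR-29b. For CXCL8 the control arrays were further apart (1.09) than siTET2 was from siControl (0.49). IL11, a cytokine of the interleukin 6 family, was 7.03 with siTET2, against 7.44 with siControl and 7.21 with nc. IL24 was 10.40 with siTET2, against 9.95 with siControl and 9.58 with nc. In the interleukin 6 family, IL6R stood alone: IL6ST, the shared signalling receptor, was 10.81 with siTET2 and 11.08 with siControl, and the median over 13 genes was -0.03. Interferon-stimulated genes had a median of 0.12 over 18 of 43 measured members, with 11 above siControl and 7 below. All 18 were above nc, against 4031 of all 9424 genes, but siControl itself had a median of 0.23 above nc for this list. IRF1, an interferon-induced transcription factor, was 7.81 with siTET2 and 7.15 with siControl, and lay above the array median with siTET2 only. CD274, the checkpoint ligand PD-L1, was 8.79 with siTET2, against 8.23 with siControl and 7.90 with nc. OASL, an antiviral protein, was 7.29 with siTET2, against 7.64 with siControl and 6.51 with nc.

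In lipid synthesis genes the control arrays also differed from each other. SREBP1 drives enzymes that build and desaturate fatty acids, and SREBP2 those of cholesterol. Of 24 fatty acid genes above the floor, 17 were below siControl (4966 of all 9424 genes) and 22 below nc (5390 of all genes), with medians of -0.12 and -0.26. SCD alone passed 1.5-fold from siControl. FASN, the fatty acid synthase, was 8.45 with siTET2, against 8.96 with siControl, 9.58 with nc and 9.42 with miR-29b. FADS2, a desaturase of polyunsaturated fatty acids, was 10.31 with siTET2, against 10.53 with siControl and 11.21 with nc. Here siControl lay between siTET2 and nc. The 20 cholesterol genes had a median of 0.02 against siControl and -0.36 against nc, and the control difference had a median of -0.34, so nearly all of the difference from nc was present in siControl too. EBP, a sterol isomerase, was 8.92 with siTET2, against 9.24 with siControl and 9.65 with nc. FDPS, which makes farnesyl diphosphate, was 9.53 with siTET2, against 9.81 with siControl and 10.18 with nc. SC5D ran the other way, with 10.66 in the siTET2 array, against 10.43 with siControl and 10.37 with nc. Of the 20 cholesterol genes, 11 were above siControl and 9 below, against 4456 and 4966 of all 9424 genes.

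**Figure D3:**
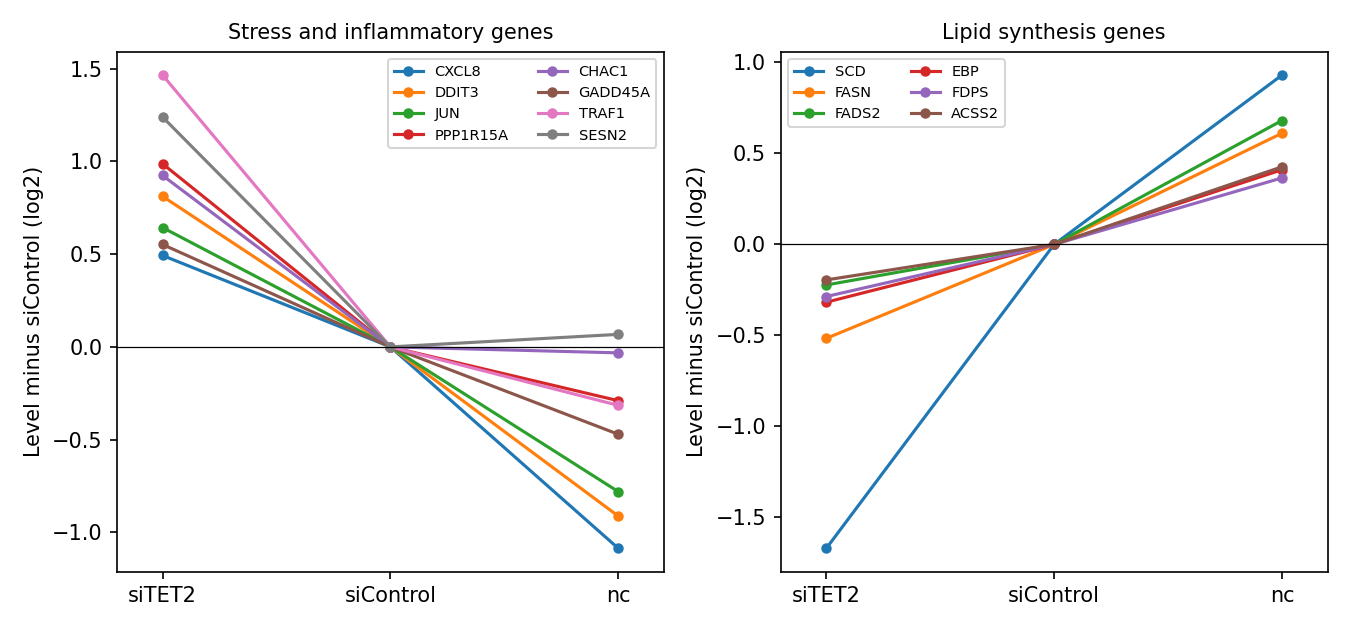
Level in the siTET2, siControl and nc arrays of DU145 minus the siControl level (log2, vertical axis; horizontal axis, array), for 8 stress and inflammatory genes (left) and 6 lipid synthesis genes (right); lines join the arrays of a gene. DDIT3, JUN, CXCL8 and GADD45A were 0.47 to 1.09 lower in nc than in siControl, and SESN2 and CHAC1 were within 0.07 of it. The 6 lipid genes were all lower in siTET2 and higher in nc, but they were picked for display. Other lipid genes, SC5D among them, ran the other way.

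Cell division genes were slightly but broadly lower. CDK1 with its cyclins starts mitosis, FOXM1 induces late cell cycle genes, and MCM, GINS and polymerase proteins copy DNA. Of 51 G2/M genes, 45 were below siControl and 38 below nc, with medians of -0.17 and -0.15, whereas 4966 of all 9424 genes were below siControl and 5390 below nc. 1 member passed 1.5-fold. CDK1 was 10.25 with siTET2, against 10.92 with siControl, 10.54 with nc and 10.65 with miR-29b, and the difference from nc was -0.29. HMMR, a spindle-associated protein, was 8.88 with siTET2 and 9.45 with siControl, and FOXM1 was 9.91 with siTET2, against 10.31 with siControl and 10.51 with nc. Of 48 replication genes, 39 were below siControl and 39 below nc, with medians of -0.15 and -0.19, and 0 passed 1.5-fold. TIMELESS, which protects replication forks, was 8.30 with siTET2, against 8.73 with siControl and 9.05 with nc, and POLD1, a subunit of DNA polymerase delta, was 7.70 with siTET2 and 8.14 with siControl.

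The p53 list held members at both extremes. Its median was 0.14 over 25 genes, with 2 at least 1.5-fold higher (SESN2 and TNFRSF10B) and 2 lower (PERP and CCNG1), against 0.955% and 1.59% of all genes. CCNG1, cyclin G1, was 10.30 with siTET2, against 11.13 with siControl, 11.19 with nc and 11.18 with miR-29b. GADD45A, a growth arrest gene, was 8.63 with siTET2, against 8.07 with siControl and 7.60 with nc. PLK2, a stress-induced kinase, was 10.38 with siTET2 and 9.84 with siControl. The BCL2 family had a median of 0.11 over 14 genes, and its widest member differences were those of BAK1 (0.28) and BID (-0.28).

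In the list of cell junctions PERP stood apart from the other desmosome genes. Over 24 members the median was -0.04, with 17 below 0 (4966 of all 9424 genes) and PERP as the single gene past 1.5-fold. DSC3, a desmosomal cadherin, was 7.29 with siTET2 and 7.79 with siControl, DSG2, another one, was 11.90 with siTET2 and 11.61 with siControl, and CLDN12, a claudin, was 11.68 with siTET2 and 11.11 with siControl. Mesenchymal markers had a median of 0.22 over 18 of 32 measured genes and 0.09 against nc. Of the 18, 13 were above siControl and 5 below, against 4456 and 4966 of all 9424 genes. AXL, a receptor kinase, had the lowest difference among the mesenchymal markers, with 11.41 in the siTET2 array, against 11.73 with siControl and 11.95 with nc. ITGA5, the alpha subunit of the fibronectin receptor, was 10.93 with siTET2, against 10.01 with siControl, 10.22 with nc and 10.00 with miR-29b. Of the 10 integrin subunits, ITGA5 among them, 2 were above siControl and 8 below, while 4 were above nc and 6 below (4031 and 5390 of all genes). ITGA6 was 10.41 with siTET2 and 10.91 with siControl. TGFBI, a matrix protein, was 9.26 with siTET2, against 8.67 with siControl but 9.04 with nc, and ZEB1, a repressor of epithelial genes, was 9.18 with siTET2 and 8.74 with siControl.

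In the EGF receptor list 17 of 24 members were above siControl and 7 below, against 4456 and 4966 of all 9424 genes. At 1.5-fold, 4 were higher and 1 lower, against 0.955% and 1.59% of all genes. The higher ones were DUSP10, a phosphatase of stress kinases (7.73 with siTET2, against 6.96 with siControl and 7.07 with nc), JUN, a subunit of AP-1 (9.85 with siTET2, against 9.20 with siControl and 8.42 with nc), SPRY2, an inhibitor of receptor signalling (9.82 with siTET2 and 9.22 with siControl), and DUSP5, a phosphatase of ERK (11.28 with siTET2 and 10.68 with siControl). EREG, the ligand epiregulin, was 10.94 with siTET2, against 11.55 with siControl and 11.33 with nc. EGFR itself differed by 0.20. DUSP10 lay above the array median with siTET2 only, so it passed the level floor through the same value that made it higher. Against nc, DUSP5 and EREG were within 1.5-fold, at 0.50 and -0.39.

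Regulators of mTORC1 had a median of 0.04 over 37 genes, with 3 at least 1.5-fold higher and 1 lower, against 0.955% and 1.59% of all genes. Amino acid sensors keep this growth kinase off when their ligand is missing. CASTOR1, the arginine sensor, was 8.76 with siTET2, against 7.57 with siControl, 7.85 with nc and 7.62 with miR-29b, and with SESN2 and DDIT4 it made up the 3 higher genes, all of which act to restrain mTORC1. TSC1, a subunit of the inhibitory TSC complex, was 9.22 with siTET2, against 8.65 with siControl and 8.82 with nc, and SESN3 was 8.84 with siTET2, against 8.29 with siControl and 8.59 with nc. AKTIP was the lower gene.

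**Figure D4:**
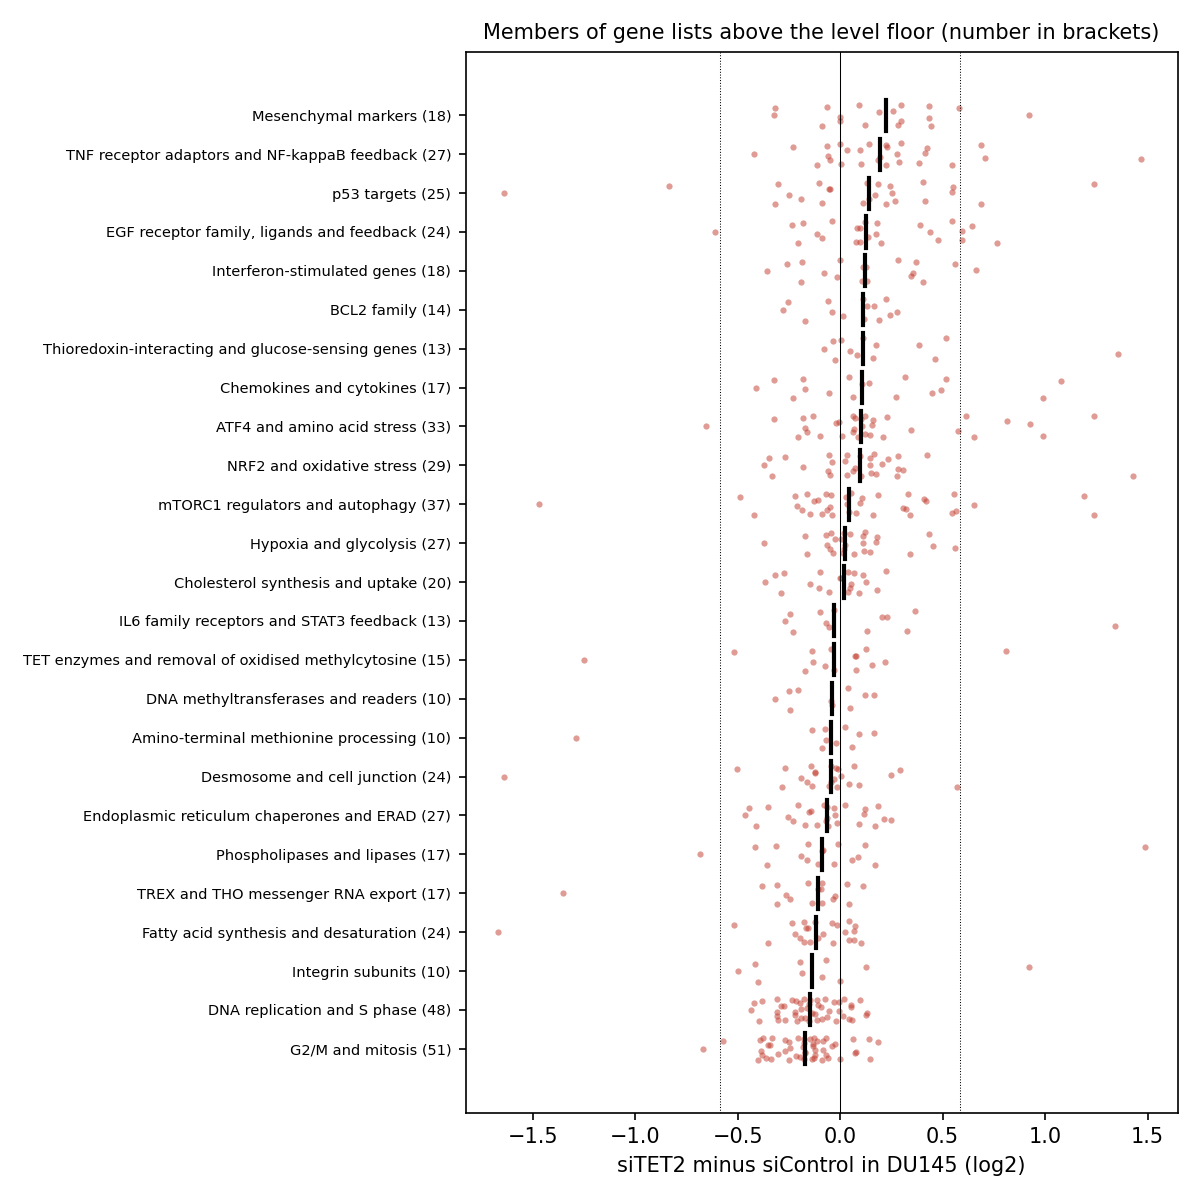
Difference siTET2 minus siControl in DU145 (log2, horizontal axis) for each member above the level floor of 25 gene lists (vertical axis, number of members in brackets), 1 point per gene, with a black bar at the list's median and dotted lines at 1.5-fold. List medians run from -0.17 for G2/M genes to 0.22 for mesenchymal markers, and single genes such as PERP, THOC7, METAP2, LIPH and IL6R lie far from the rest of their lists. The lists were chosen with earlier results of these data known.

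In 3 further lists a single gene lay far from its functional partners. Each of these genes was already past 2-fold, and the lists were chosen with earlier results known. That a gene stands apart in them is therefore a description only. THOC7 was -1.35 from siControl, while the other 16 genes of mRNA export above the floor lay between -0.38 and 0.11, with NCBP2, the cap-binding protein, at -0.38 and DDX39A, an export helicase, at -0.31. METAP2 was -1.29, while the other 9 genes of amino-terminal processing lay between -0.14 and 0.17. LIPH was 1.49, while the other lipases lay between -0.68 for MGLL, which cleaves monoacylglycerol, and 0.17. Hypoxia and glycolysis genes had a median of 0.02 over 27 genes, with NDRG1, a hypoxia-induced gene, at 10.55 with siTET2, against 9.98 with siControl and 10.09 with nc, and 0 past 1.5-fold.

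In LNCaP, whose arrays share no control with those of DU145, the DU145 differences recurred mainly on the lower side. Over 9416 LNCaP genes, 5 were at least 2-fold higher with siTET2 (0.0531%) and 9 lower (0.0956%), and 36 were at least 1.5-fold higher (0.382%) and 223 lower (2.37%). Of the 20 genes at least 2-fold lower in DU145, 19 were above the floor in LNCaP, and all 19 were below LNCaP siControl, where 48.3% of the 8296 genes above both floors were. Their LNCaP differences ran from -1.12 to -0.20 with a median of -0.79. The 19 include TET2, the gene targeted in both lines, at -1.12, so its lower level there adds no evidence of recurrence. At least 1.5-fold lower were 13 of the 19, TET2 included, against 2.41% of all these genes. Below LNCaP nc were 18, again with TET2, against 44.7%. Of the 12 genes at least 2-fold higher in DU145, 7 were above the floor in LNCaP, and 6 of these were above LNCaP siControl, against 51.7% of all genes. Their LNCaP differences ran from -0.02 to 0.58 with a median of 0.18, and 0 reached 1.5-fold, against 0.205% of all genes. Against LNCaP nc, 5 of the 7 were higher, against 55.3% of all these genes, with a median of 0.10. IL6R was 1.34 above siControl in DU145 and differed by -0.02 in LNCaP, HMOX1 by 1.43 and 0.11, LIPH by 1.49 and 0.18, and THOC7 by -1.35 and -0.20. From LNCaP nc, IL6R differed by -0.004, HMOX1 by -0.51, LIPH by 0.008 and THOC7 by 0.18, so HMOX1 and THOC7 changed sign with the control. CAVIN2 was not above the floor in LNCaP. In the larger set past 1.5-fold, which also holds TET2, 113 of 121 lower genes were below LNCaP siControl. Of the 121, 94 were below LNCaP nc (44.7% of all these genes) and 32 were at least 1.5-fold lower than siControl there. Of 55 higher genes, 44 were above LNCaP siControl, 39 above LNCaP nc (55.3% of all these genes) and 2 at least 1.5-fold higher than siControl. By list, the stress genes had a median of 0.10 from siControl in DU145 and -0.18 in LNCaP, and the G2/M genes -0.17 and -0.68. The LNCaP list medians depend on its siControl array. CDK1 was -0.99 from LNCaP siControl but -0.40 from LNCaP nc, and KIF14 -0.84 and -0.06. FOXM1 was -0.71 and -0.72. Whether the lines differ was not tested, since each has 1 array per construct.

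**Figure D5:**
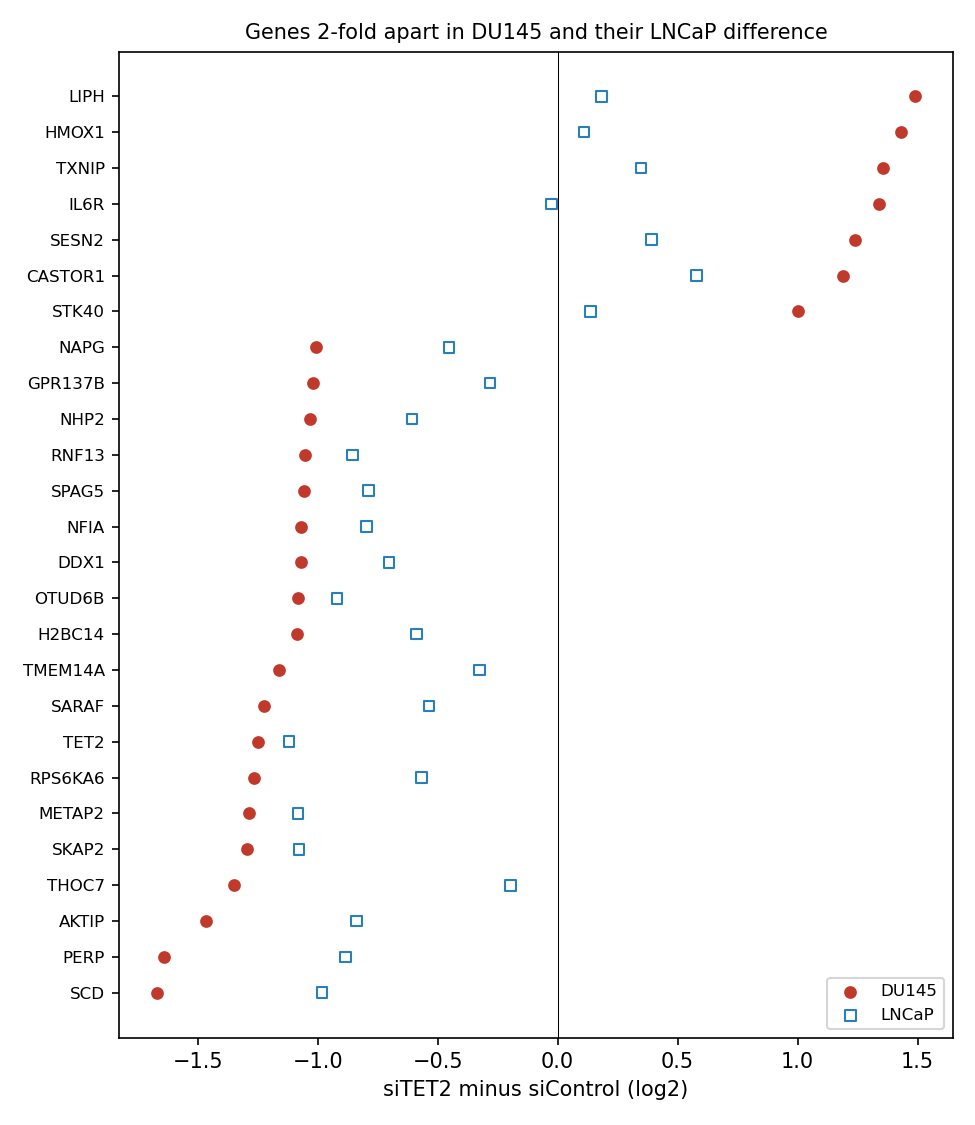
Difference siTET2 minus siControl (log2, horizontal axis) in DU145 (filled circles) and LNCaP (open squares) for the 26 genes at least 2-fold apart in DU145 that were above the level floor in LNCaP. All 19 lower genes are below 0 in LNCaP too, from -1.12 to -0.20, and the 7 higher genes lie between -0.02 and 0.58. The gene at -1.12 is TET2, the target in both lines.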

How the data were processed

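Transcript levels were measured on 8 Affymetrix arrays, 1 per cell line and construct. The authors deposited 1 table of log2 values for 33297 probe sets, made with RMA in Affymetrix Expression Console per the submitters' processing notes; which arrays were normalized together and the log base are not given in the sources used here. Levels were compared within a line. The platform's annotation gave 1 symbol to 19460 probe sets, several to 1754 (not named here) and none to 12083; Entrez identifiers matched RefSeq's table for 19429. For the 769 of 18417 genes with several probe sets, that with the highest mean over the arrays was used.

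Differences are array minus array (Python 3.11.15, pandas 2.3.3), with no test, since each group has 1 array; their number limits the precision. The level floor is the 50th percentile of the higher array. Genes were counted at 2-fold and 1.5-fold. Counting was tested on simulated data. Named genes are TET and DNMT genes, all past 2-fold, and, from each list, up to 6 members furthest from siControl; the genes nearest the threshold were named after their values were seen. Members and lists were chosen with earlier results of these data known. Alternatives were nc or the mean of both controls, centring, other floors and averaging probe sets.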

Additional observations from a re-analysis of the deposited data

How the results depend on the processing

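Under 6 alternatives (nc as the control, the mean of both controls, centred arrays, no level floor, a floor at the 75th percentile, and averaged probe sets), the genes at least 2-fold higher numbered 20 with nc and 4 with the stricter floor, and the other settings stayed within 1.5 times of 12. The 2-fold lower count stayed within 1.5 times of 20 in all 6. The 1.5-fold counts were 148 higher and 234 lower with nc, 173 and 226 with no floor, and 46 and 90 with the stricter floor. TET2 differed by -1.08 with probe sets averaged. The cholesterol median was -0.36 with nc and -0.21 with both controls, the cytokine median 0.32 and the p53 median -0.048 with the stricter floor. Fewer genes are tested under that floor; otherwise the cause was not tested. The sign of 3 of 25 list medians turned with nc (cholesterol, endoplasmic reticulum and amino-terminal processing). With the stricter floor 3 turned (cholesterol, lipases and p53), and with no floor 2 (cholesterol and the interleukin 6 family). The mean of both controls turned 1 (cholesterol), averaged probe sets 1 (methyltransferases) and centring 0. Of 51 named genes past 1.5-fold, 6 were within it against nc: CDK1, CSF1, DUSP5, EREG, STEAP2 and TET1. No paired analysis was possible because each group has 1 array. Signal near background limits genes at low level.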

Other observations

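Among genes between 1.5-fold and 2-fold, a few chosen after their values were seen add to the picture in DU145. SLC12A2, a sodium, potassium and chloride cotransporter, was 7.32 with siTET2, against 8.21 with siControl, 8.13 with nc and 8.10 with miR-29b. STK39, the kinase SPAK that activates this cotransporter, was 9.16 with siTET2, against 10.03 with siControl, 10.11 with nc and 10.13 with miR-29b. For both, the 3 other arrays lay close together above siTET2, and both differed by -0.88 from siControl, while their LNCaP differences were -0.21 and -0.11. PTGES, a prostaglandin E synthase, was 9.20 with siTET2, against 10.03 with siControl and 10.41 with nc.

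On the higher side, TGFBR2, a receptor for TGF-beta, was 11.31 with siTET2, against 10.56 with siControl and 10.58 with nc. ETS1, a transcription factor, was 10.63 with siTET2, against 9.83 with siControl and 9.78 with nc, and IGF2BP3, an RNA-binding protein, was 8.90 with siTET2, against 8.01 with siControl, 0.89 above each control. In LNCaP, TGFBR2, ETS1, IGF2BP3 and CDK6 did not reach the level floor. CDK6, a kinase of the G1 phase, was 8.66 with siTET2, against 7.95 with siControl and 7.31 with nc, so that the controls were nearly as far apart as siTET2 was from siControl.

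Below the level floor, 12 of 8993 genes were at least 2-fold apart, 5 higher and 7 lower, and 7 of them were also past 2-fold from nc on the same side. The higher ones included SERPINB7 (6.54 with siTET2 and 5.16 with siControl) and SLC6A14, an amino acid transporter (6.01 with siTET2 and 4.75 with siControl), named after their values were seen. Of 3993 probe sets above the floor without a single gene symbol, 5 were at least 2-fold higher and 14 lower with siTET2, against 7 and 0 between the control arrays.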
